A study of Pan troglodytes with 8 samples.

Results

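Radial fibre and astroglial genes were described by the accessibility of the chromatin around them in 4 cell populations of chimpanzee cerebral organoids. The genes were VIM, NES and GFAP, which encode intermediate filaments, FABP7, SLC1A3, SPARCL1, GJA1, ALDH1L1, AQP4 and S100B. Every accessible region whose closest gene was one of these 10 was taken, at any distance. This gave 36 of 211348 regions with chimpanzee coordinates, and 10 of the 41376 genes that the table names as closest to a region. The rule itself uses no measured value.

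Radial glia are the neural stem cells of the developing cortex, and a long fibre carries their nuclei and guides newborn neurons. The fibre is held by vimentin and nestin filaments, and its membrane and cytoplasm carry a glutamate transporter (SLC1A3) and a fatty-acid carrier (FABP7). Radial glia later give rise to astrocytes, which keep many of these genes and add others, among them GFAP, the gap junction protein GJA1, the folate enzyme ALDH1L1, the water channel AQP4 and the calcium-binding protein S100B. Basal radial glia keep a basal fibre, whereas intermediate progenitors and neurons do not.

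The organoids were grown from 1 chimpanzee induced pluripotent stem cell line, SandraA, so that all groups share 1 genetic background, and were used after 8 weeks (with a margin of 3 days). Cells were sorted into neurons labelled BCL11B+ (N), basal intermediate progenitors (bIP) and 2 kinds of radial glia, apical (aRG) and basal (bRG). No group received a treatment. ATAC-seq, which tags open chromatin with a transposase, was done on 2 libraries of each population, 8 in all. Whether the libraries of a population came from different cultures is not stated, and the p-values measure only the spread between the libraries at hand.

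Library totals lay between 24913928 and 34845193 counts. The summed accessibility of 4 radial glia markers (SOX2, PAX6, HES1, HES5) was 399 to 461 CPM (counts scaled to library size) in aRG, 394 to 436 CPM in bRG, 244 to 278 CPM in bIP and 82.2 to 111 CPM in N. The populations followed their labels in this respect. The 4 markers of basal intermediate progenitors (EOMES, NEUROG2, PPP1R17, SSTR2) summed to 158 to 175 CPM in aRG, 154 to 162 CPM in bRG, 278 CPM in bIP and 203 to 243 CPM in N. Singly they were mixed. EOMES and PPP1R17 had their highest means in bIP. NEUROG2 had a mean of 6.93 CPM in aRG and 3.25 CPM in bIP, and SSTR2 2.51 CPM in bIP and 6.17 CPM in N. The 6 neuronal markers (NEUROD2, NEUROD6, TBR1, BCL11B, STMN2, TUBB3) summed to 302 to 340 CPM in aRG, 307 to 332 CPM in bRG, 582 to 602 CPM in bIP and 519 to 548 CPM in N. Their sum was thus higher in bIP than in N, and BCL11B itself measured 62.1 ± 5.42 CPM in aRG and 51 ± 5.55 CPM in N (SD, n = 2 each). Singly these were mixed as well. At an edgeR adjusted p under 0.05, 4 of the 6 were higher in N than in aRG and 1 lower. Of all genes, 32.8% were higher there and 28% lower. From bIP to N, 1 was higher and 3 lower (20.9% and 19.2% of all genes). NEUROD2 had means of 21.2 CPM in aRG, 124 CPM in bIP and 157 CPM in N. Markers of cells outside this lineage were measured beside them. Oligodendrocyte precursor markers summed to 62.4 to 75 CPM in aRG and 47.6 to 57.4 CPM in N (4 genes), and 3 of the 5 listed microglial markers summed to 47.2 to 65.1 CPM in aRG and 33.2 to 36.9 CPM in N. In aRG and N, choroid plexus markers (4 genes) summed to 54.3 to 56.4 and 46.8 to 47.2 CPM, mesenchymal markers (5 genes) to 130 to 164 and 87.4 to 101 CPM, and endothelial markers (3 of 4 genes) to 21.2 to 22.3 and 45 to 59 CPM. Most of the microglial sum was P2RY12, with means of 48.2 CPM in aRG and 24.3 CPM in N. SPI1 went from 1.65 to 1.18 CPM, and CSF1R went the other way, from 6.29 to 9.51 CPM. Most of the endothelial rise was CDH5, from 4.53 to 31.8 CPM, beside CLDN5 (12.9 to 14.5 CPM) and TIE1 (4.32 to 5.78 CPM). The part of such cells in the results was not tested.

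All 10 genes had counts in every library, and none was called higher in neurons than in radial glia. Counts over the regions of a gene were summed, and the sums were compared in 1 edgeR quasi-likelihood fit of all 40618 genes that passed a filter on low counts. Called genes are those whose adjusted p (Benjamini-Hochberg, over all genes) was under 0.05. The 10 genes all passed the filter and all differed among the 4 populations, where 63.8% of all genes did. In sorted bulk libraries, fewer cells of a type and less open chromatin per cell cannot be told apart.

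**Figure D1:**
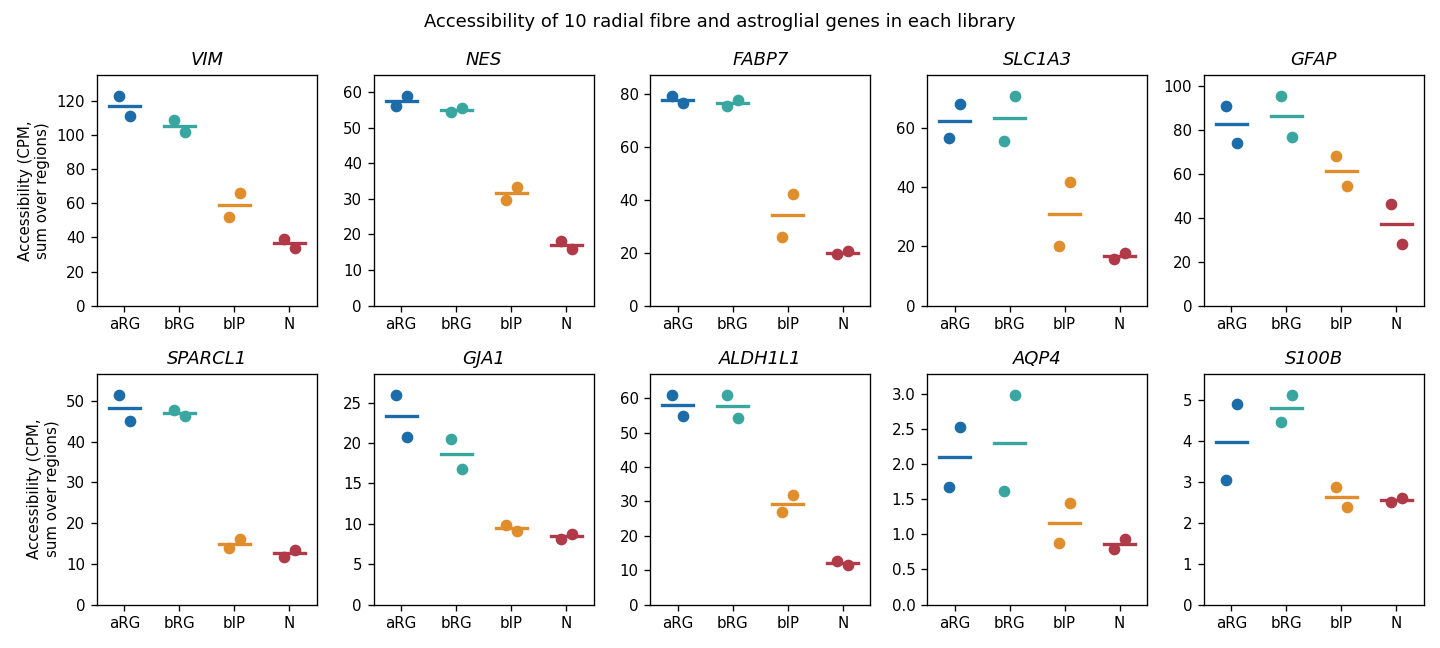
Summed accessibility (CPM, linear axis from 0) of the 10 genes in each of the 8 libraries, where points are libraries and short lines are means of 2. In VIM, for example, the aRG libraries lie at 123 and 111 CPM and the N libraries at 39.2 and 34 CPM.

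The level of accessibility was set on a common scale by dividing the summed CPM by the summed width of the regions in kb. In aRG, VIM had the highest level with 32.8 ± 2.46 CPM per kb (SD, n = 2, here and below). FABP7 followed with 20 ± 0.53 CPM per kb, then GFAP with 16.2 ± 2.32, ALDH1L1 with 15.1 ± 1.07 and NES with 13.7 ± 0.481 CPM per kb. GFAP, ALDH1L1 and NES were neighbours within the sum of their SDs. SLC1A3 had 9.89 ± 1.28 CPM per kb, SPARCL1 7.06 ± 0.661 and GJA1 5.16 ± 0.833 CPM per kb. AQP4 and S100B, which belong to mature astrocytes, were lowest with 2.94 ± 0.836 and 1.79 ± 0.584 CPM per kb, and rested on 22 to 86 and 58 to 152 counts per library. In N, GFAP (7.29 ± 2.54 CPM per kb) stood second after VIM (10.3 ± 1.03 CPM per kb), and FABP7 had 5.15 ± 0.204 CPM per kb.

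The filament genes were most accessible in both kinds of radial glia and least in neurons. VIM, whose protein is the main filament of the radial fibre, measured 123 and 111 CPM in the aRG libraries, 109 and 102 CPM in bRG, 52.1 and 65.9 CPM in bIP, and 39.2 and 34 CPM in N. The bIP libraries lay below all radial glia libraries and above both N libraries. VIM fell from aRG to bIP (log2 fold change -0.99 ± 0.13 SE, edgeR adjusted p = 0.00063) and again from bIP to N (-0.69 ± 0.13, edgeR adjusted p = 0.0042), and was 3.2-fold lower in N than in aRG. NES, the nestin filament of neural stem cells, measured 56.1 and 58.9 CPM in aRG, 54.4 and 55.6 CPM in bRG, 29.8 and 33.3 CPM in bIP, and 18.1 and 16 CPM in N. Its populations formed 3 steps with no overlap, aRG and bRG sharing the top one. It fell by 0.87 ± 0.10 on the log2 scale from aRG to bIP (edgeR adjusted p = 0.00035) and by 0.89 ± 0.11 from bIP to N (edgeR adjusted p = 0.00052).

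GFAP, the filament of astrocytes that primate radial glia also make, changed least among the filaments. It measured 90.9 and 74.2 CPM in aRG, 95.6 and 76.8 CPM in bRG, 68 and 54.6 CPM in bIP, and 46.2 and 28 CPM in N. In every population library 1 was above library 2, and the populations still did not overlap apart from aRG with bRG. The log2 change from aRG to bIP was -0.43 ± 0.23 and was not called (edgeR adjusted p = 0.17). GFAP fell by 0.72 ± 0.23 from bIP to N (edgeR adjusted p = 0.037), a call lost without bIP library 1 (-0.55, adjusted p = 0.17) or without N library 2 (-0.41, adjusted p = 0.18). From aRG to N it fell by 1.15 ± 0.23 (edgeR adjusted p = 0.0025).

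FABP7 and SLC1A3, the carrier and the transporter of the radial fibre, each fell at both steps, with libraries of bIP that stood well apart. FABP7 measured 79.5 and 76.6 CPM in aRG, 75.5 and 77.8 CPM in bRG, 26.1 and 42.5 CPM in bIP, and 19.5 and 20.6 CPM in N. SLC1A3 measured 56.6 and 67.9 CPM in aRG, 55.7 and 70.8 CPM in bRG, 20.2 and 41.8 CPM in bIP, and 15.8 and 17.9 CPM in N. In both genes bIP library 1 lay near the neurons and bIP library 2 near the middle. FABP7 fell by 1.19 ± 0.19 from aRG to bIP on the log2 scale (edgeR adjusted p = 0.0014) and by 0.77 ± 0.19 from bIP to N (edgeR adjusted p = 0.013, and adjusted p = 0.054 without N library 1). SLC1A3 fell by 1.01 ± 0.29 from aRG to bIP (edgeR adjusted p = 0.022), a call lost without aRG library 2 (-0.87, adjusted p = 0.11) or bIP library 1 (-0.57, adjusted p = 0.055). Its fall of 0.88 ± 0.30 from bIP to N (edgeR adjusted p = 0.044) was lost without any one of 5 libraries: aRG 1, aRG 2, bIP 2, N 1 and N 2 (-0.32 at the least, without bIP 2, with adjusted p from 0.057 to 0.26). It was also lost when only regions within 1 kb of the SLC1A3 start were summed (-0.51, edgeR adjusted p = 0.2). From aRG to N the falls were 1.96 ± 0.19 for FABP7 (edgeR adjusted p = 4.9e-05) and 1.88 ± 0.30 for SLC1A3 (edgeR adjusted p = 0.00063).

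SPARCL1, a secreted matrix protein of astrocytes that acts on synapses, and GJA1, the main gap junction protein of radial glia and astrocytes, were already low in bIP. SPARCL1 measured 51.6 and 45.2 CPM in aRG, 47.9 and 46.3 CPM in bRG, 14 and 16 CPM in bIP, and 11.8 and 13.5 CPM in N. GJA1 measured 26 and 20.7 CPM in aRG, 20.5 and 16.8 CPM in bRG, 9.81 and 9.09 CPM in bIP, and 8.15 and 8.78 CPM in N. For each gene the bIP and N libraries lay close together and far below the radial glia. SPARCL1 had the largest fall of the 10 genes from aRG to bIP, 1.69 ± 0.13 on the log2 scale (edgeR adjusted p = 6.1e-05), followed by GJA1 with 1.30 ± 0.18 (edgeR adjusted p = 0.00069). From bIP to N the changes of SPARCL1 (-0.25 ± 0.13, edgeR adjusted p = 0.15) and GJA1 (-0.16 ± 0.18, edgeR adjusted p = 0.52) were not called.

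ALDH1L1, a folate enzyme used to mark astrocytes, had the largest difference of the 10 sums between aRG and N, as long as regions named after its antisense genes were left out. It measured 60.9 and 55 CPM in aRG, 61.1 and 54.4 CPM in bRG, 26.9 and 31.9 CPM in bIP, and 12.7 and 11.4 CPM in N. Again aRG and bRG overlapped, and bIP and N each stood apart from the rest. The fall was 0.98 ± 0.12 from aRG to bIP (edgeR adjusted p = 0.00045), 1.28 ± 0.13 from bIP to N (edgeR adjusted p = 0.00032) and 2.26 ± 0.13 from aRG to N (edgeR adjusted p = 6.6e-06), all on the log2 scale. The level in N was 4.79-fold lower than in aRG. With the antisense-named regions added, the ALDH1L1 change from aRG to N was -0.40 (edgeR adjusted p = 0.0076) and that from aRG to bIP -0.43 (edgeR adjusted p = 0.009).

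AQP4, the water channel of astrocyte end feet, measured 1.68 and 2.53 CPM in aRG, 1.62 and 2.99 CPM in bRG, 0.878 and 1.44 CPM in bIP, and 0.795 and 0.939 CPM in N. Its N libraries were below every radial glia library, and one bIP library overlapped them in level. AQP4 fell by 1.28 ± 0.42 from aRG to N on the log2 scale (edgeR adjusted p = 0.026), a call lost without aRG library 2 (-0.96, adjusted p = 0.15), N library 1 (-1.16, adjusted p = 0.1) or N library 2 (-1.40, adjusted p = 0.06). S100B, a calcium-binding protein of astrocytes, measured 3.06 and 4.9 CPM in aRG, 4.48 and 5.14 CPM in bRG, 2.87 and 2.38 CPM in bIP, and 2.52 and 2.61 CPM in N. The lower aRG library was close to bIP and N, and bRG was above both. S100B was the 1 gene of the 10 not called between aRG and N (-0.63 ± 0.27, edgeR adjusted p = 0.074), and without aRG library 1 it was called there (-0.93, adjusted p = 0.027). S100B fell by 0.91 ± 0.27 from bRG to N (edgeR adjusted p = 0.018), a call lost without bRG library 2 (-0.80, adjusted p = 0.089), N library 1 (-0.88, adjusted p = 0.063) or N library 2 (-0.93, adjusted p = 0.052).

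Apical and basal radial glia did not differ detectably in any of these genes. Called between bRG and aRG were 0 of 10 lower and 0 higher, with 0% of all genes called either way. At an unadjusted p under 0.05, 542 of all 40618 genes and 0 of the 10 passed, and DESeq2 called 0 of the 10. Fewer genes passed than would if nothing differed, so the test was conservative here and 0 of 10 says little. The fit shares its estimate of the spread over all 4 populations. Relative to counting noise, libraries differed less in aRG and bRG (chi-square per degree of freedom 3.98 and 4.47) than in bIP and N (5.71 and 7.54). The log2 changes from aRG to bRG ran from -0.32 ± 0.17 in GJA1 (edgeR adjusted p = 1) to 0.27 ± 0.26 in S100B (edgeR adjusted p = 1), with a median of -0.02 beside 0.01 over all genes. In NES (-0.06 ± 0.10) and SPARCL1 (-0.04 ± 0.12) the standard errors were small against the drops seen in bIP.

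Most of the 10 genes were lower in bIP than in radial glia, and none was higher. Between aRG and bIP, 7 of 10 were lower and 0 higher, where 18.7% of all genes were lower and 22% higher. The 3 not called were GFAP, AQP4 (-0.86 ± 0.41, edgeR adjusted p = 0.13) and S100B (-0.60 ± 0.27, edgeR adjusted p = 0.12). The median over the 10 was -0.98, with a median of 0 over all genes. Between bRG and bIP, 8 were lower and 0 higher, where 18.1% of all genes were lower and 19.8% higher. The 8 were the 7 above and S100B (-0.87 ± 0.27, edgeR adjusted p = 0.033), whose call was lost without any one of the 4 bRG and bIP libraries (adjusted p from 0.078 to 0.15).

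From bIP to N, 6 of 10 were lower and 0 higher (VIM, NES, FABP7, SLC1A3, GFAP and ALDH1L1), where 19.2% of all genes were lower and 20.9% higher. The median was -0.70, with 0.01 over all genes. Between aRG and N, 9 of 10 were lower and 0 higher, where 28% of all genes were lower and 32.8% higher, and the median was -1.72 beside 0.05 over all genes. Between bRG and N all 10 were lower and 0 higher, where 27.3% of all genes were lower and 31.9% higher. These comparisons share libraries, so their counts are not separate evidence.

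The place of bIP between radial glia and neurons was described gene by gene, and differences between genes were not tested. The shares of the drop given here carry no standard error. The share of the log2 drop from aRG to N that had been reached in bIP was 37.4% in GFAP, 43.3% in ALDH1L1, 49.5% in NES, 53.4% in SLC1A3, 59% in VIM and 60.5% in FABP7. It was 67.2% in AQP4, 87% in SPARCL1, 89.1% in GJA1 and 94.2% in S100B, the last of a drop that was not called. Set against the point halfway on the log2 scale between radial glia (the mean of aRG and bRG) and N, 2 of 10 genes were lower in bIP and 0 higher, where 9.73% of all genes were lower and 14.6% higher. SPARCL1 lay 0.71 below the halfway point (-0.71 ± 0.11, edgeR adjusted p = 0.0025), and GJA1 lay below it by less (-0.49 ± 0.15, edgeR adjusted p = 0.048). The GJA1 call was lost without any one of the 8 libraries (adjusted p from 0.05 to 0.22), and that of SPARCL1 when only regions within 1 kb of the gene start were summed (-0.27, adjusted p = 0.53).

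**Figure D2:**
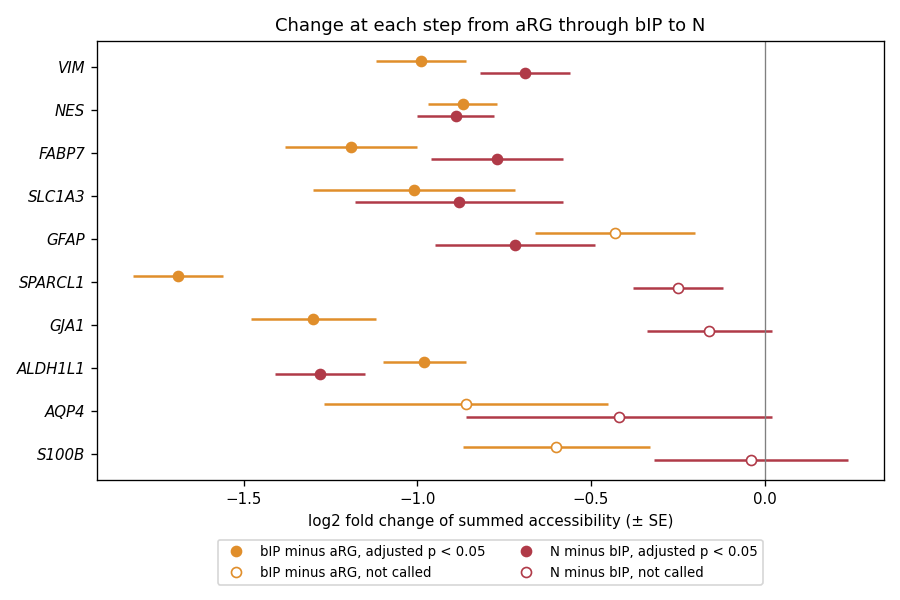
Log2 fold change ± SE of the summed accessibility of each gene from aRG to bIP and from bIP to N, filled where called. SPARCL1 has the largest first step (-1.69) with an uncalled second step (-0.25), and ALDH1L1 has the largest second step (-1.28).

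Single regions showed more than the sums. Each gene had 1 region that touched its start (distance 0), 10 in all, and VIM had no other. The remaining 26 regions lay up to 29659 bases away, and widths ran from 180 to 3569 bases. All 36 had identifiers in 3 species (human, chimpanzee and gorilla). Regions are named below by the gene and the distance, which the table gives without a sign and without its genome build. In chimpanzee panTro6 the VIM start region was chr10:17700975-17704543, the NES start region chr1:131479365-131481343 and the FABP7 start region chr6:120139690-120141588. Whether a region lay in an exon, an intron or outside the gene was not analysed here.

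Regions were tested in a second edgeR fit of 198227 regions, whose CPM differ slightly from those of the gene sums. Of the 36 regions 35 passed the filter on low counts, and 29 of them differed among the 4 populations, where 73.5% of all regions did. The region left out, 29659 bases from SPARCL1, had 3 to 5 counts per library. Between bRG and aRG, 0 of 35 regions were lower and 0 higher, with 0% of all regions either way, and DESeq2 called 0. At an unadjusted p under 0.05, 1 of the 35 and 5232 of all 198227 regions passed, again fewer than would if nothing differed. Between aRG and bIP, 23 were lower and 0 higher, where 22.6% of all regions were lower and 24.5% higher. Between bRG and bIP, 22 were lower and 0 higher, where 20.4% were lower and 22.4% higher. From bIP to N, 16 were lower and 2 higher, where 22.6% were lower and 25% higher, and 1 was higher without bIP library 1 or N library 2. Between aRG and N, 26 were lower and 2 higher (31.7% and 37.2% of all regions), and between bRG and N 27 were lower and 2 higher (30.4% and 37.5%, with 1 higher without bRG library 1 or N library 2). The median log2 change from aRG to N was -1.66 over the 35 and 0.13 over all regions, and it was -1.66 both for the 10 regions at a start and for the 25 tested regions further away.

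**Figure D3:**
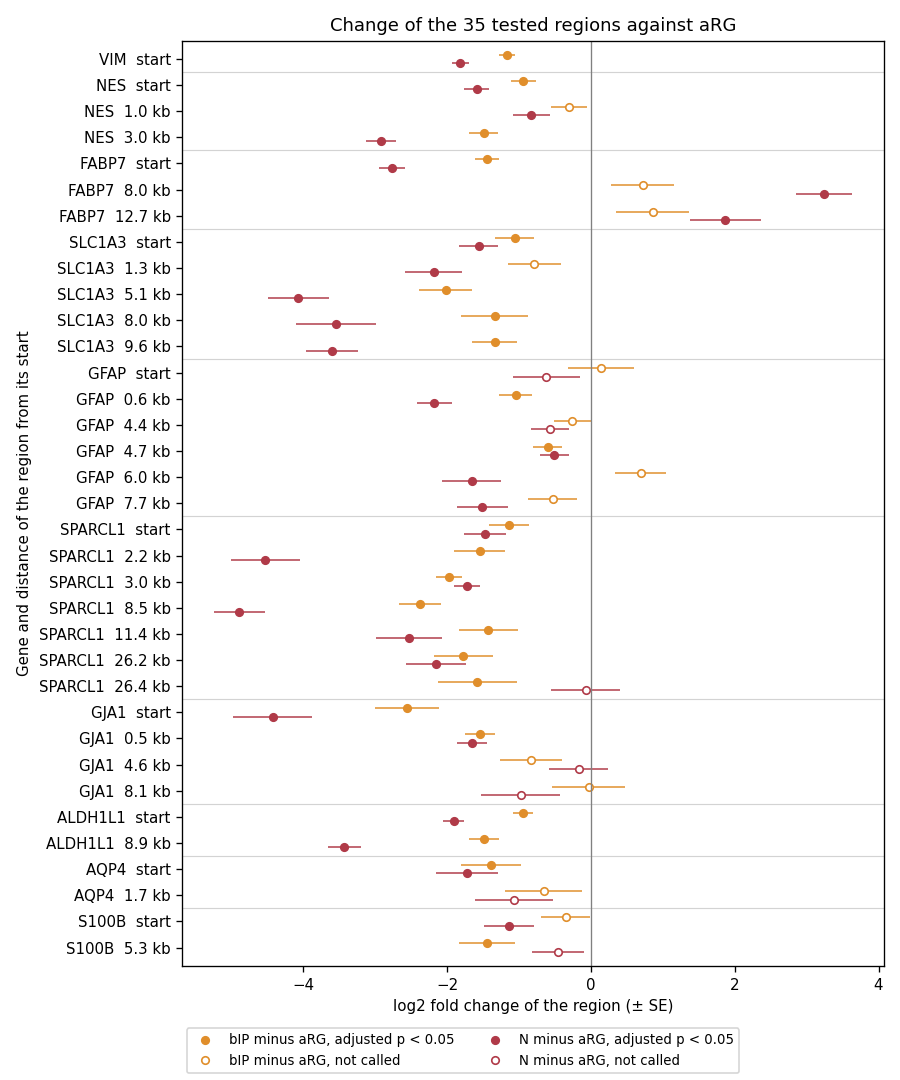
Log2 fold change ± SE of each tested region from aRG to bIP and from aRG to N, filled where called, grouped by gene and labelled with the distance from the gene start. The FABP7 regions 8.0 and 12.7 kb from the start lie right of 0 in N (3.24 and 1.87), opposite to the FABP7 start region (-2.77).

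FABP7 held regions that moved in opposite directions. Its start region measured 82.1 and 78.8 CPM in aRG, 74.2 and 74.1 CPM in bRG, 22.3 and 36.8 CPM in bIP, and 12.5 and 11 CPM in N. The region 8019 bases away (chr6:120131746-120132745) measured 0.548 and 0.378 CPM in aRG, 0.5 and 0.646 CPM in bRG, 0.618 and 0.921 CPM in bIP, and 3.63 and 5.26 CPM in N. The start region was thus highest where the far region was lowest, and both N libraries of the far region exceeded every other library. The start region fell by 2.77 ± 0.18 from aRG to N (edgeR adjusted p = 1.7e-07), while the far region rose by 3.24 ± 0.39 (edgeR adjusted p = 1.3e-05) on the log2 scale. The far region did not change detectably from aRG to bIP (0.72 ± 0.44, edgeR adjusted p = 0.2) and rose from bIP to N (2.52 ± 0.37, edgeR adjusted p = 0.0002).

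A further FABP7 region, 12718 bases from the start, measured 0.627 and 0.924 CPM in aRG, 0.736 and 1.43 CPM in bRG, 0.836 and 2 CPM in bIP, and 2.11 and 3.57 CPM in N. Its N libraries were above all others, the nearest being bIP library 2. This FABP7 region rose by 1.87 ± 0.49 from aRG to N (edgeR adjusted p = 0.0043). The start region held 98.6 and 98.4% of the FABP7 counts in the aRG libraries, 98.4 and 97.3% in bRG, 93.9 and 92.6% in bIP, and 68.6 and 55.4% in N, so that the fall of the FABP7 sum was smaller than that of its start. Both far FABP7 regions remained well below the start region in N.

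**Figure D4:**
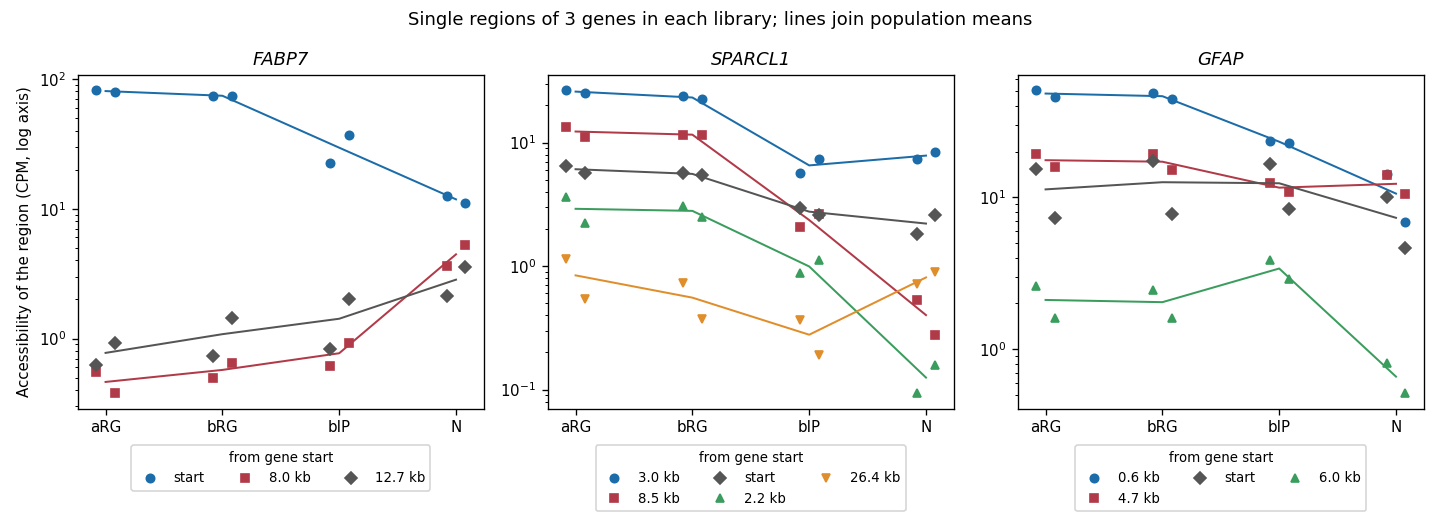
Accessibility (CPM, log axis) of single regions of FABP7, SPARCL1 and GFAP in each library, where points are libraries and lines join the means of the 4 populations. In FABP7 the start region declines from 82.1 and 78.8 CPM in aRG to 12.5 and 11 CPM in N while the region 8.0 kb away reaches 3.63 and 5.26 CPM there.

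SPARCL1 had 8 regions, the most of the 10 genes, and its largest neuronal losses lay away from the start. The region with the highest accessibility, 3036 bases away (chr4:84981504-84982587), measured 26.7 and 25 CPM in aRG, 24 and 22.4 CPM in bRG, 5.67 and 7.41 CPM in bIP, and 7.3 and 8.41 CPM in N. Its bIP and N libraries overlapped in level. This SPARCL1 region fell by 1.98 ± 0.18 from aRG to bIP (edgeR adjusted p = 1.1e-05), with no called change from bIP to N (0.26 ± 0.18, edgeR adjusted p = 0.25), and lay below the halfway point in bIP (-1.08 ± 0.16, edgeR adjusted p = 0.00034). The region 8488 bases away (chr4:84975896-84976787) measured 13.4 and 11.1 CPM in aRG, 11.6 and 11.5 CPM in bRG, 2.07 and 2.65 CPM in bIP, and 0.528 and 0.275 CPM in N. It declined at both steps, to 17 and 7 counts in the N libraries. The fall from aRG to N was 4.89 ± 0.35 on the log2 scale (edgeR adjusted p = 3.3e-07), the largest of the 35 regions. A SPARCL1 region 2195 bases away fell by 4.53 ± 0.48 (edgeR adjusted p = 4.2e-06), to 3 and 4 counts in N, and the start region fell by 1.47 ± 0.29 (edgeR adjusted p = 0.00057).

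One distant SPARCL1 region, 26364 bases away, had its lowest values in bIP. It measured 1.14 and 0.546 CPM in aRG, 0.736 and 0.374 CPM in bRG, 0.363 and 0.192 CPM in bIP, and 0.714 and 0.903 CPM in N, on 5 to 29 counts per library. Both bIP values were below all others. This SPARCL1 region fell from aRG to bIP (-1.58 ± 0.55, edgeR adjusted p = 0.032) and rose from bIP to N (1.51 ± 0.55, edgeR adjusted p = 0.037). The fall was lost without aRG 1 (-0.96, adjusted p = 0.3), bIP 1 (-2.11, adjusted p = 0.054) or bIP 2 (-1.23, adjusted p = 0.16), and the rise without any one bIP or N library (adjusted p from 0.052 to 0.27).

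GFAP regions differed from each other in pattern. The region 621 bases from the start (chr17:10321282-10322571), the most accessible of the gene, measured 51.1 and 45.7 CPM in aRG, 48.6 and 44.3 CPM in bRG, 23.7 and 23 CPM in bIP, and 14.3 and 6.91 CPM in N. It followed the pattern of VIM and NES, and fell by 2.18 ± 0.24 from aRG to N (edgeR adjusted p = 5.2e-06). The GFAP start region (chr17:10322775-10324026) measured 15.3 and 7.31 CPM in aRG, 17.5 and 7.79 CPM in bRG, 16.5 and 8.33 CPM in bIP, and 10 and 4.67 CPM in N. In each population library 1 was about double library 2 or more than double it. No change of this start region was called from aRG to bIP (0.14 ± 0.46, edgeR adjusted p = 0.83) or from aRG to N (-0.62 ± 0.47, edgeR adjusted p = 0.26).

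A GFAP region 5975 bases away was highest in bIP. It measured 2.62 and 1.6 CPM in aRG, 2.47 and 1.6 CPM in bRG, 3.89 and 2.92 CPM in bIP, and 0.807 and 0.511 CPM in N. Both bIP libraries exceeded all others, and both N libraries were below all others. The difference between bIP and aRG was not called (0.69 ± 0.36, edgeR adjusted p = 0.14), the fall from bIP to N was (-2.34 ± 0.40, edgeR adjusted p = 0.00055), and bIP lay above the halfway point (1.53 ± 0.30, edgeR adjusted p = 0.0026). It was the 1 region of the 35 above that point, with 3 below it, where 5.79% of all regions were below and 15.4% above. The 3 were the SPARCL1 region 3036 bases away, the GJA1 region 507 bases away (-0.59 ± 0.18, edgeR adjusted p = 0.033) and the S100B region 5317 bases away (-1.21 ± 0.34, edgeR adjusted p = 0.022). Without bIP library 1 or N library 2, 1 was below, and without N library 1, 2 were above.

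In SLC1A3 the far regions lost more than the start. The start region (chr5:56138261-56139861) measured 35.3 and 42.8 CPM in aRG, 32 and 40.1 CPM in bRG, 11.8 and 25.8 CPM in bIP, and 12.5 and 14 CPM in N. The region 5082 bases away (chr5:56144442-56145790) measured 8.77 and 12.9 CPM in aRG, 10.3 and 13.5 CPM in bRG, 1.64 and 3.72 CPM in bIP, and 0.621 and 0.668 CPM in N. At the start, bIP library 1 was as low as N, whereas in the far region both bIP libraries were above N. From aRG to N the SLC1A3 start fell by 1.56 ± 0.27 (edgeR adjusted p = 0.00021) and the region 5082 bases away by 4.07 ± 0.42 (edgeR adjusted p = 3.9e-06). All 5 SLC1A3 regions were called lower in N than in aRG.

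In NES and ALDH1L1 too, a region away from the start showed the larger fall. The NES region 2987 bases away (chr1:131476093-131477254) measured 26.9 and 31.9 CPM in aRG, 26.1 and 26.4 CPM in bRG, 8.39 and 12.5 CPM in bIP, and 4.25 and 3.46 CPM in N, and was more accessible in radial glia than the NES start. It fell by 2.92 ± 0.21 from aRG to N (edgeR adjusted p = 3.5e-07), against 1.59 ± 0.17 at the NES start (edgeR adjusted p = 4.6e-06). The ALDH1L1 region 8879 bases away (chr3:124282236-124283960) measured 29.5 and 24.5 CPM in aRG, 28.2 and 25.2 CPM in bRG, 7.78 and 11.5 CPM in bIP, and 2.17 and 2.87 CPM in N. The populations other than aRG and bRG did not overlap in either region. The ALDH1L1 region fell by 3.43 ± 0.23 from aRG to N (edgeR adjusted p = 2.2e-07), against 1.91 ± 0.15 at the ALDH1L1 start (edgeR adjusted p = 5e-07).

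GJA1 showed the reverse order. Its start region, 352 bases wide (chr6:118789001-118789352), measured 2.27 and 2.39 CPM in aRG, 2.41 and 1.05 CPM in bRG, 0.363 and 0.422 CPM in bIP, and 0.124 and 0.0786 CPM in N, the last being 4 and 2 counts. The region 507 bases away (chr6:118789640-118792230) measured 23 and 17.2 CPM in aRG, 15.8 and 13.4 CPM in bRG, 7.3 and 6.53 CPM in bIP, and 6.18 and 6.52 CPM in N. In the second region bIP and N were nearly level. The GJA1 start fell from bIP to N (-1.88 ± 0.66, edgeR adjusted p = 0.034), a call lost without any one bIP or N library (adjusted p from 0.069 to 0.15). From aRG to N the GJA1 start fell by 4.43 ± 0.55 (edgeR adjusted p = 1.5e-05) and the wider GJA1 region by 1.66 ± 0.21 (edgeR adjusted p = 1.9e-05).

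The low genes AQP4 and S100B had 2 regions each. The AQP4 start region (chr18:20752316-20752495) measured 1.21 and 1.34 CPM in aRG, 0.794 and 1.36 CPM in bRG, 0.4 and 0.576 CPM in bIP, and 0.342 and 0.432 CPM in N, and fell by 1.72 ± 0.43 from aRG to N (edgeR adjusted p = 0.0032). The S100B start region (chr21:33143810-33144956) measured 1.76 and 2.56 CPM in aRG, 2.41 and 3.23 CPM in bRG, 1.82 and 1.57 CPM in bIP, and 1.12 and 0.825 CPM in N. It fell by 1.14 ± 0.35 from aRG to N (edgeR adjusted p = 0.011), a call lost without aRG library 2 (-0.86, adjusted p = 0.11) or N library 2 (-0.94, adjusted p = 0.069). The other S100B region, 5317 bases away, measured 1.45 and 2.56 CPM in aRG, 2.06 and 1.8 CPM in bRG, 0.799 and 0.653 CPM in bIP, and 1.24 and 1.69 CPM in N. It was lowest in bIP, with N near the lower aRG library. This S100B region fell from aRG to bIP by 1.45 ± 0.39 (edgeR adjusted p = 0.008), a call lost without aRG library 2 (-0.99). Its rise from bIP to N was not called (1.00 ± 0.39, edgeR adjusted p = 0.051).

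Whether a region changed unlike its gene was tested in edgeR, by comparing its log2 change with that of the whole gene (183620 regions of genes with more than 1 region). The whole gene includes the region itself, so a region that holds most of the counts can differ little from it. From aRG to N, 6 of 34 regions lay above their gene and 10 below it, where 33.2% of all regions were above and 26.7% below. From bIP to N, 3 were above and 7 below (18% and 19.6% of all regions), and from aRG to bIP 4 were above and 0 below (22.7% and 14.1%). At an unadjusted p under 0.05, 1 of the 34, the GJA1 start (-1.07), was below its gene from aRG to bIP. From aRG to N the share above was under the background and the share below was near it. From bIP to N the count below was 3 or 4 without aRG 1, aRG 2, bIP 2, N 1 or N 2, and from aRG to bIP the count above was 2 without aRG 1, aRG 2 or bIP 1.

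The FABP7 regions stood farthest apart. From aRG to N the FABP7 region 8019 bases away lay 5.34 log2 units above its gene (edgeR adjusted p = 3.6e-10), that at 12718 bases lay 3.96 above (edgeR adjusted p = 3.3e-08), and the start lay below (-0.67, edgeR adjusted p = 0.011, lost without aRG 1, aRG 2 or N 2 with adjusted p from 0.058 to 0.13). Below their genes were also the SPARCL1 regions at 8488 bases (-2.80, edgeR adjusted p = 1.1e-09) and 2195 bases (-2.45, edgeR adjusted p = 6.1e-05), and the GJA1 start (-2.83, edgeR adjusted p = 7.5e-05). The SLC1A3 region at 5082 bases (-2.04, edgeR adjusted p = 0.00042) and the NES region at 2987 bases (-1.03, edgeR adjusted p = 0.00024) lost more than their genes as a whole. So did the ALDH1L1 region at 8879 bases (-1.02, edgeR adjusted p = 0.00075) and the GFAP region at 621 bases (-0.88, edgeR adjusted p = 0.0051). Losing less than their genes as a whole were the SPARCL1 region at 26364 bases (2.01, edgeR adjusted p = 0.00014), the NES region at 979 bases (1.07, edgeR adjusted p = 0.0023), and the GJA1 region at 4640 bases (1.44, edgeR adjusted p = 0.003). The NES call was lost without aRG 2 (0.87, adjusted p = 0.076) and the GJA1 call without aRG 1 or N 2 (adjusted p = 0.057 and 0.081).

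The deposited consensus peaks, 1 list per population and so without replicate spread, gave a second view of the same regions. Of the 36 regions, a peak overlapped 19 with the aRG list, 20 with the bRG list, 16 with the bIP list and 13 with the N list. Of all 211348 regions, 37.7% had a peak in the aRG list, 39.2% in bRG, 37.4% in bIP and 38.1% in N. The regions with a peak in all 4 lists numbered 9 (17.7% of all regions), among them the starts of VIM, NES, FABP7, SLC1A3 and ALDH1L1. A peak in the aRG and bRG lists only was found at 5 regions (9.36% of all regions), which included NES 2987 bases and SLC1A3 5082 bases from their starts. A peak in the N list only was found at 2 regions (11.3% of all regions), and these were both far FABP7 regions. The GFAP region at 5975 bases had a peak in the bIP list only, and the GFAP start had peaks in the bIP and N lists but in neither radial glia list. Its mean CPM in aRG (11.3) lay between those in bIP (12.4) and N (7.34). No list had a peak at 11 regions (35.6% of all regions), which included both AQP4 regions and the GJA1 start.

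**Figure D5:**
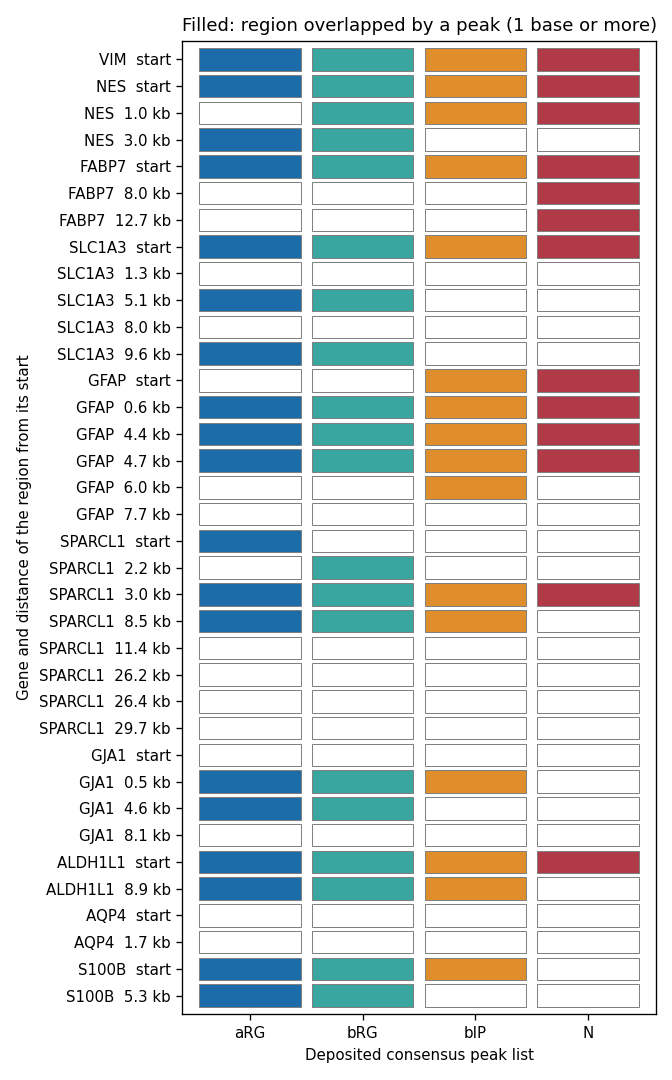
Overlap of the 36 regions (rows, by gene and distance from its start) with the deposited consensus peaks of each population (columns), filled where a peak covers at least 1 base. Of the 36 cells in a column, 19 (aRG), 20 (bRG), 16 (bIP) and 13 (N) are filled.

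Antisense genes named after 3 of the genes, VIM, AQP4 and ALDH1L1, had 13 regions of their own, which the sums leave out. These regions have no strand, and nearness to the antisense start is the reason for their name. Near ALDH1L1-AS1 a region 10153 bases from its start (chr3:124225846-124226737) measured 0.823 and 1.18 CPM in aRG, 1.97 and 1.26 CPM in bRG, 4.69 and 2.53 CPM in bIP, and 25.8 and 28.1 CPM in N. Both N libraries were far above the rest. This ALDH1L1-AS1 region rose by 4.75 ± 0.37 from aRG to N (edgeR adjusted p = 5.5e-07), and another at 16182 bases rose by 3.67 ± 0.47 (edgeR adjusted p = 2e-05). That at 252 bases rose by 1.26 ± 0.45 (edgeR adjusted p = 0.023). Called lower were VIM-AS1 at 5723, 7398 and 11133 bases, AQP4-AS1 at 753 bases, and ALDH1L1-AS2 at 673 and 1147 bases. Their changes ran from -0.75 to -1.78 (edgeR adjusted p from 0.00022 to 0.04). The other antisense regions were not called. Of all regions, 31.7% were lower and 37.2% higher. With the antisense regions added to the sum, ALDH1L1 changed by 0.03 from bIP to N and was no longer called (adjusted p = 0.84). AQP4 with its 1 antisense region fell from bIP to N by 0.90 (adjusted p = 0.0078), where AQP4 alone was not called (-0.42 ± 0.44, edgeR adjusted p = 0.48).

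The genes closest in pattern were found by Pearson's r of log2 CPM over the 8 libraries among 14090 protein-coding genes. The libraries fall into few levels, so that r is high for many genes and is given as a description. Closest to VIM were NUAK2 and KLF6 (r = 0.998 each), to NES NRARP and GRAMD2B (0.999 each), and to FABP7 TMEM167B (0.999) and NOTCH3 (0.998), a Notch receptor. Closest to SLC1A3 were SFRP1 (0.996), a secreted Wnt antagonist, and SLC14A2 (0.995), and to GFAP TF (0.996), the transferrin gene, and PTGFRN (0.995). Closest to SPARCL1 were DMRT1 and EIF4E3 (0.998 each), to GJA1 KMT2A and SMARCAD1 (0.993 each), to ALDH1L1 SMR3B (1.000) and SAYSD1 (0.999), and to AQP4 NEDD4L and MCMDC2 (0.991 each). S100B had the lowest values, 0.969 with SHISAL2A and 0.957 with EFTUD2.

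Further genes of the same families and cell types were counted in the comparison of aRG with N, where 28% of all genes were lower and 32.8% higher. Of 15 intermediate filament genes beside VIM, NES and GFAP, 4 were lower and 6 higher, with a median log2 change of -0.06 (0.05 over all genes). NEFL, a neurofilament subunit (1.64 ± 0.21, edgeR adjusted p = 0.00021), and INA, a neuronal filament protein (0.95 ± 0.13, edgeR adjusted p = 0.00025), rose, while KRT18, an epithelial keratin (-1.69 ± 0.40, edgeR adjusted p = 0.0054), and LMNA, a nuclear lamin (-0.95 ± 0.19, edgeR adjusted p = 0.0025), fell. Of 29 tested astroglial genes beside the 10, 19 were lower and 3 higher, with a median of -0.90. RFX4, a transcription factor of neural progenitors (-2.20 ± 0.13, edgeR adjusted p = 7.2e-06), was among the lower. AGT, the precursor of angiotensin (1.06 ± 0.29, edgeR adjusted p = 0.012), and SLC4A4, a bicarbonate transporter (0.48 ± 0.14, edgeR adjusted p = 0.018), were higher. Of 27 tested radial glia genes 21 were lower and 1 higher, with a median of -0.93. TNC, a matrix protein of radial glia (-2.58 ± 0.14, edgeR adjusted p = 6.1e-06), fell, and the 1 that rose was LIFR, the receptor subunit for LIF (3.69 ± 0.41, edgeR adjusted p = 8.6e-05). Of 24 tested gliogenic regulators, 15 were lower and 1 higher, with a median of -0.76. These share LIFR and some other genes with the lists above, so the counts are not separate. Named among the lower were SOX8 (-2.69 ± 0.24, edgeR adjusted p = 2.6e-05) and TCF7L1 (-2.15 ± 0.15, edgeR adjusted p = 1.1e-05), transcription factors.

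Relatives of single genes were counted in the same way. Some of them, such as SLC1A2, GJB6 and MLC1, are also among the astroglial genes above, so these counts are not separate. Of 11 tested glutamate transporter and metabolism genes 4 were lower and 2 higher from aRG to N, with a median of -0.25. SLC1A2, the other glial glutamate transporter, fell (-2.11 ± 0.23, edgeR adjusted p = 7.3e-05), and SLC1A1, the neuronal one, rose (1.28 ± 0.12, edgeR adjusted p = 2.8e-05). Of 17 tested gap junction genes 7 were lower and 5 higher, with a median of -0.16. GJB6, a second astrocyte connexin, fell (-1.94 ± 0.20, edgeR adjusted p = 5.4e-05), and GJD2, the connexin of electrical synapses between neurons, rose (0.91 ± 0.11, edgeR adjusted p = 0.00013). Of 10 tested genes of fatty-acid and retinol binding proteins 3 were lower and 2 higher, FABP3 among the latter (1.51 ± 0.17, edgeR adjusted p = 8.6e-05), with a median of -0.57.

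Of 7 tested genes of the SPARC family 4 were lower and 1 higher from aRG to N, with a median of -0.62, and SPARC itself fell (-1.93 ± 0.17, edgeR adjusted p = 2.6e-05). Of 16 tested genes of aquaporins and end-foot proteins 9 were lower and 2 higher, with a median of -0.41. MLC1, a membrane protein of astrocyte end feet, fell most clearly (-2.55 ± 0.23, edgeR adjusted p = 3.1e-05) with UTRN, a dystrophin relative (-1.65 ± 0.12, edgeR adjusted p = 1.3e-05), and AQP3, another water channel, rose (1.24 ± 0.23, edgeR adjusted p = 0.0017). Of 11 tested S100 genes 7 were lower and 1 higher, with a median of -0.97, S100A13 among the lower (-3.06 ± 0.25, edgeR adjusted p = 1.9e-05). Of 12 tested folate enzyme genes beside ALDH1L1 2 were lower and 3 higher, with a median of 0.17, and AMT, an enzyme of glycine cleavage, was among the lower (-1.18 ± 0.26, edgeR adjusted p = 0.0036).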

How the data were processed

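Per the file headers, the authors deposited unscaled counts for each region and library, beside a closest gene and a distance in bases, and 1 consensus peak list per population with a -log10 q-value per peak. The smallest deposited -log10 q-value was 2.8 (aRG), 3.96 (bRG), 4.35 (bIP) and 6.14 (N). Per the submitters' processing notes, bcl2fastq 2.20.0, MACS2, panTro6 and hg38 were used. Not given in the sources used here are the aligner, the counter and the way the peak lists combine libraries. Starts in the table matched 54881 peak starts if taken as 0-based and 11 if taken as 1-based, and coordinates are printed from 1.

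Counts were summed per closest gene. Regions without one held 2.53 to 2.82% of the counts. Sums and single regions were tested with edgeR 4.0.16 (R 4.3.3, TMM, filterByExpr, robust quasi-likelihood fit with population as the only term, prior count of 2 for log2 values), with Benjamini-Hochberg adjustment over all features and a threshold of 0.05. Regions were set against their own gene with diffSpliceDGE. The fits were also run on simulated counts with known changes, and the outcome is not given here. Alternatives were other scalings (limma 3.58.1 for loess), no filter, DESeq2 1.42.0, other distances, antisense regions, a replicate block and leaving out each library. The 2 libraries of a population differed by more than counting noise (chi-square per degree of freedom 3.98 to 7.54).

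The genes and lists were chosen with earlier results of these data known. All 10 genes are named, and of their regions the nearest, the most accessible, the one with the smallest joint p and the one with the largest rise. Regions beyond this rule were singled out after their values were seen. Of the other lists the text names only some of the genes with the smallest p in each direction. Promoter motifs were not analysed here. Some genes of these lists are not reported here.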

Additional observations from a re-analysis of the deposited data

How the results depend on the processing

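Of the counts of called genes and regions, 465 values under an alternative stayed within 1.5 times the reported count and 36 did not. The 465 include counts that were 0 in both, such as those between bRG and aRG. Every one of the 10 genes kept its direction from aRG to N under all alternatives. For genes below the halfway point in bIP (2), RLE and loess scaling gave 1 each, regions within 1 kb gave 0, and leaving out 1 library gave 1 to 3. The labels share only numbers between populations, and same-numbered libraries deviated together to a varying degree (correlations of deviations 0.17 to 0.49 over genes). With the replicate block, higher regions numbered 1 from aRG to bIP, 1 from bRG to bIP and 4 from bIP to N, and regions off the halfway point 5 below and 2 above. Against their own gene the block gave 7 above and 4 below from aRG to bIP, 6 above and 11 below from bIP to N, and 11 above from aRG to N. It also called GFAP (-0.43) and AQP4 (-0.87) lower in bIP than in aRG, and the GFAP start lower in N than in aRG (-0.63, edgeR adjusted p = 0.0042) and than in bIP (-0.77, edgeR adjusted p = 0.0015). DESeq2 called 1 region higher from bIP to N.

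Leaving out 1 library gave 1 to 3 regions higher from bIP to N, 1 to 2 higher from bRG to N, 1 to 4 below and 1 to 2 above the halfway point, and against their own gene 2 to 5 above from aRG to bIP and 3 to 8 below from bIP to N. Signs turned only for changes that were not called, or, for ALDH1L1 from bIP to N, with antisense regions (0.03). Without 1 library, S100B ranged from -0.03 to 0.65 (aRG to bRG) and from -0.22 to 0.10 (bIP to N). From aRG to bIP the GFAP start ranged from -0.44 to 0.76 (also -0.30), AQP4 at 1731 bases from -1.22 to 0.08 and GJA1 at 8131 bases from -0.52 to 0.30 (also 0.02). The SLC1A3 start ranged from -0.98 to 0.01 from bIP to N. From aRG to N, SPARCL1 at 26364 bases ranged from -0.51 to 0.54 (also 0.07) and GJA1 at 4640 bases from -0.67 to 0.21. GFAP at 4680 bases turned from bIP to N under RLE (-0.01) and DESeq2 (-0.02), and ranged from -0.16 to 0.27 without 1 library. Of the single genes and regions, 2268 values kept their sign and their status, which includes changes not called either time. A call was lost in 130 values and gained in 34, and 16 turned sign. The cause was not tested. AQP4 and S100B rested on few counts, which limits their precision.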
